A study of Mus musculus with 3 samples.

Results

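The genes described here are the 5 members of the cytokine system through which mesenchymal cells control osteoclasts: Tnfsf11 (RANKL), Tnfrsf11b (osteoprotegerin), Tnfrsf11a (RANK), Csf1 and Il34. They were chosen by name, were found by symbol in all 3 libraries and were joined by gene identifier, so they are 5 of the 21446 identifiers that the libraries shared. The cells came from Pthrp-mCherry knock-in mice on a C57BL/6 background, in which a red fluorescent reporter marks cells that express Pthlh, the gene for parathyroid hormone-related protein (PTHrP). mCherry+ cells were sorted from dissociated mandibular molars and sequenced with the 10x Chromium 3′ v3.1 chemistry. Mice of both sexes were used in the study, cells were pooled, and the number of mice per pool is not given in the sources used here. A single library was made at P15 (postnatal day 15), at P25 and at 8 weeks. No time point had a replicate, so no difference between time points was tested, and the spread over the 3 libraries is a spread over ages. All groups carried the reporter and the sort, and no unsorted or reporter-free cells served as a control.

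The P15, P25 and 8-week libraries held 12926, 8971 and 5192 cells, with a median of 14254, 15834 and 8712 unique molecular identifiers (UMIs) per cell. The P15 and P25 libraries shared 26 cell barcodes, P15 and 8 weeks shared 16, and P25 and 8 weeks shared 13. The file of P25 was made with Cell Ranger 6.0.1 and a reference of 32293 features and those of the other ages with version 6.1.2 and 22056 features, so software and reference cannot be told apart from the P25 age. Levels are given as CPM, a gene's UMIs per 1000000 UMIs summed over a class of cells, with exact Poisson 95% intervals that cover counting error only.

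RANKL on stromal and bone-forming cells binds RANK on myeloid precursors and drives them to become osteoclasts, while osteoprotegerin is a secreted decoy that binds RANKL and keeps it from RANK. CSF1 and IL-34 are separate ligands of one receptor, CSF1R, which keeps osteoclast precursors alive. Around teeth the ratio of RANKL to osteoprotegerin is known for its part in eruption and root resorption, and PTHrP is known to raise RANKL in osteoblast-lineage cells.

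Cells were placed in classes by UMIs of 6 genes. The Ibsp gate took cells with at least 10 UMIs of Ibsp (bone sialoprotein, a matrix protein of cementum and bone) and fewer than 3 of Ifitm5, and the Ifitm5 gate took cells with at least 3 UMIs of Ifitm5, a membrane protein of mineralizing cells. The Hand2 gate (a transcription factor of jaw mesenchyme) and the Pappa2 gate (a protease of IGF binding proteins) needed 3 UMIs, and the Rgs5 gate (a G-protein regulator of pericytes) needed 10. Cells of these 5 gates had 0 UMIs of Ptprc, Epcam and Pecam1, and all cells with 0 UMIs of these 3 genes are called mesenchymal below. The Csf1r gate took cells with at least 3 UMIs of Csf1r. At P15, P25 and 8 weeks, the Ibsp gate held 1285, 1256 and 876 cells, the Ifitm5 gate 609, 793 and 268, the Hand2 gate 176, 192 and 107 and the Csf1r gate 382, 183 and 21. The Rgs5 and Pappa2 gates reached 20 cells at P15 alone, with 173 and 434 cells. Cells that passed several gates, 195, 643 and 446 in the 3 libraries, were left out of the gates. The largest class, with 7463, 4866 and 3284 cells, was mesenchymal but passed no gate.

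Marker sums were taken in each gate, and the gating gene is part of them. The summed level of 5 markers given for alpha cementoblasts was 15735 to 23214 CPM in the Ibsp gate (14666 of 15735 CPM at P15 from Ibsp itself) and 11469 to 19439 in the Ifitm5 gate. It was at most 583 in the Hand2, Rgs5 and Pappa2 gates and at most 1501 in the Csf1r gate, so this sum did not separate the Ibsp from the Ifitm5 gate. The 6 markers given for beta cementoblasts did, with 1492 to 2704 CPM in the Ibsp gate and 9975 to 31756 in the Ifitm5 gate. Ifitm5 itself gave 741 to 943 CPM of the latter. In cells of no gate the beta sum was 542 to 2951 CPM. The summed level of 7 mural markers was 12072 CPM in the Rgs5 gate, 9267 of it from Rgs5 itself, and at most 377 in the other gates and in cells of no gate. The 8 macrophage and monocyte markers summed to 15006 to 21041 CPM in the Csf1r gate (at P15, 902 of 15006 CPM from Csf1r) and to at most 79.7 in the mesenchymal classes. Markers of odontoblasts and osteocytes reached 37.9 CPM at most, but the odontoblast marker Dspp was spread unevenly. It was 31.0 and 35.7 CPM in the Ifitm5 gate at P15 and P25, against 0.634 and 0.636 in the Ibsp gate. The 37.9 CPM were those of the Hand2 gate at P25. The part of odontoblast transcripts in the gates was not tested. The Rgs5 gate also held more endothelial (38.0 CPM) and epithelial (587 CPM) marker UMIs than any other mesenchymal gate, and dissociation stress genes at 12714 CPM, against 13266 in the Pappa2 gate, 6558 to 10352 in the Ibsp, Ifitm5 and Hand2 gates and 10048 to 23050 in cells of no gate. The part of these in its values was not tested.

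Csf1 had a higher level in cells that held Tnfsf11, as given below, and the start regions of both genes are shown for this reason. The sequences are the 250 bases before each annotated start, read 5′ to 3′ on the gene's strand from the RefSeq promoter table of GRCm38.p6, which held 3 of the 5 members. Tnfsf11 lies at chr14:78277445-78308043 and Csf1 at chr3:107741048-107760469, both on the minus strand of GRCm38. The windows are chr14:78308044-78308293 for Tnfsf11 and chr3:107760470-107760719 for Csf1.
Tnfsf11: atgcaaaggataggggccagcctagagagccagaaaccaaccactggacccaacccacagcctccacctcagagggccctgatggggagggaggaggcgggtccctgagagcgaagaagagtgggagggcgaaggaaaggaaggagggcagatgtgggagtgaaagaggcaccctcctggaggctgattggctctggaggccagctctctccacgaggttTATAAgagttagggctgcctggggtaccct
Csf1: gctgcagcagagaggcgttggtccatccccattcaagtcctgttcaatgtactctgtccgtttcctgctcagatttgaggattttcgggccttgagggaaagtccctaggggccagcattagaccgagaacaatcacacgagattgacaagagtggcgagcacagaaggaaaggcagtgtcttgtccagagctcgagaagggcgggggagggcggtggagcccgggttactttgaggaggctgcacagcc
The capitals mark TATAA, the core of a TATA box, at bases -30 to -26 of Tnfsf11. TATAA on the gene's strand was found in 16% of the 32851 promoter windows and was not in the Csf1 window. The letters TGTGGT (a core bound by RUNX factors, 14% of windows on either strand) and TGANTCA (bound by AP-1, 6.75%) were in neither window. The other genes lie at chr15:54250619-54278484 (Tnfrsf11b, minus strand), chr1:105780718-105847981 (Tnfrsf11a, plus strand) and chr8:110741829-110805924 (Il34, minus strand).

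Decoy receptor UMIs outnumbered ligand UMIs in the sorted mesenchyme as a whole. In all mesenchymal cells, 568 Tnfsf11 and 9984 Tnfrsf11b UMIs were counted at P15, 456 and 8088 at P25, and 78 and 3184 at 8 weeks. These are 5.69 Tnfsf11 UMIs per 100 Tnfrsf11b UMIs at P15 (95% interval 5.22 to 6.19), 5.64 at P25 (5.12 to 6.20) and 2.45 at 8 weeks (1.93 to 3.07). The 3′ tags count molecules and not gene length, and they say nothing of protein.

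The balance spanned a wider range between classes of cells than between ages. In the Ifitm5 gate it was 0.182 at P15 and 0.408 at P25, and 0 of 742 at 8 weeks, which allows up to 0.498. In the Ibsp gate it was 2.63 (2.02 to 3.38), 2.57 (1.82 to 3.53) and 0.778 (0.252 to 1.82) per 100 at P15, P25 and 8 weeks. In the Hand2 gate it was 72.7 (35.7 to 145), 56.3 (21.9 to 135) and 63.6 (20.9 to 180), from 16, 9 and 7 Tnfsf11 UMIs. The order of the 3 gates was the same in every library, and of the 95% intervals only those of the Ifitm5 and Ibsp gates at 8 weeks overlapped. In the Rgs5 gate at P15, 20 Tnfsf11 UMIs stood against 9 Tnfrsf11b UMIs, a ratio of 222 per 100 (96.7 to 554). With lower UMI thresholds the log2 ratio of the Rgs5 gate turned from 1.11 to -2.46. That of the Hand2 gate turned from -0.62 to 0.37, and was -1.79 with higher thresholds. The Tnfrsf11b levels of both gates were not shown to be above background, as given below. The Pappa2 gate at P15 had 16.1 (9.36 to 26.3). Cells of no gate had 10.9, 14.6 and 4.24. The mean log2 ratio (0.5 added to both counts) over the 3 libraries was -9.14 ± 1.33 (SD, n = 3) in the Ifitm5 gate, -5.79 ± 0.94 in the Ibsp gate, -3.51 ± 0.93 in cells of no gate and -0.62 ± 0.17 in the Hand2 gate. Without possible doublets that of the Ibsp gate was lower by more than its SD, as given in the last section. No test of these ratios was made, since 3 libraries against 3 cannot give a two-sided exact permutation p below 0.10. That bound is for unpaired groups, and pairing the gates by library would leave fewer arrangements.

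**Figure D1:**
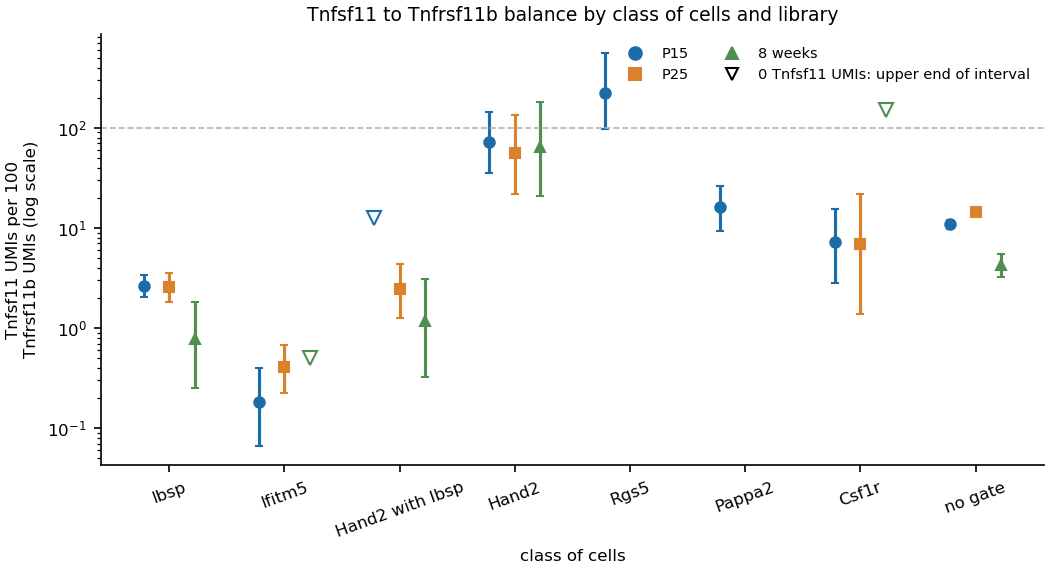
Tnfsf11 UMIs per 100 Tnfrsf11b UMIs (log axis) in each class of cells and library, with exact 95% intervals for counting error; open triangles are the upper end of the interval where 0 Tnfsf11 UMIs were counted, and the dashed line is a ratio of 100. The Ifitm5 gate is lowest (0.182 at P15), the Ibsp gate is at 2.63 at P15, and the Hand2 gate (72.7) and the Rgs5 gate (222) are the classes nearest the line.

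Tnfrsf11b followed the reverse of this order. In the P15, P25 and 8-week libraries its level was 275, 164 and 203 CPM in the Ifitm5 gate and 118, 80.4 and 83.6 CPM in the Ibsp gate. In the Hand2 gate it was 6.1, 4.21 and 8.36 CPM. At P15 it was 13.0 CPM in the Pappa2 gate and 4.39 in the Rgs5 gate, and in the Csf1r gate it was 16.1, 11.1 and 17.4 over the 3 ages. The Ifitm5 values lay above the Ibsp values, and these above the Hand2 values, in every library. The levels in the Hand2, Rgs5 and Pappa2 gates were below that of the Csf1r gate of the same library. No level above background was thus shown there. The Csf1r gate is no clean background, since it held Ibsp at 476 and 1243 CPM at P15 and P25, against 52.1 and 131 in the Hand2 gate. At 8 weeks it held 78.2 CPM of Ibsp against 295, and 4 Tnfrsf11b UMIs. Absence of the decoy receptor is not read from these levels. Cells of the Ifitm5 gate were 4.71%, 8.84% and 5.16% of all cells at P15, P25 and 8 weeks and held 29.6%, 39.7% and 22.7% of all Tnfrsf11b UMIs.

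In edgeR's quasi-likelihood test on sums per gate and library with the library as a block, each gate was compared with the mean of the other mesenchymal gates. Tnfrsf11b was higher in the Ifitm5 gate by 4.38 ± 0.15 on the log2 scale (SE, Benjamini-Hochberg adjusted p = 4.92e-08, higher in 3 of 3 libraries) and in the Ibsp gate by 2.68 ± 0.15 (edgeR adjusted p = 1.18e-05, 3 of 3). Of 13498 genes tested, 15.2% passed an adjusted p of 0.05 in the first comparison and 1.5% in the second. It was lower in the Hand2 gate (log2 fold change -2.44 ± 0.22, edgeR adjusted p = 0.000128, 3 of 3 libraries, 6.25% of genes called) and in the Rgs5 gate (-3.42 ± 0.35, edgeR adjusted p = 7.95e-05, 1 library, 7.62% called). In the Pappa2 gate the log2 fold change was -1.19 ± 0.25 (edgeR adjusted p = 0.0511, 0.963% called). The Ibsp gate was below the Ifitm5 gate by a log2 fold change of -1.36 ± 0.15 (edgeR adjusted p = 0.000446, 3 of 3, 5.22% called), a call lost with lower UMI thresholds (-1.46, adjusted p = 0.113). The Rgs5 and Pappa2 gates each entered as 1 sum that was assumed to vary like the others, and leaving out P15 removes both, which moved the differences to 1.27 for Ibsp, 3.35 for Ifitm5 and -4.62 for Hand2, all still past the threshold. With lower UMI thresholds for all gates, the Rgs5 value was -0.10 (edgeR adjusted p = 0.987).

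The shares of cells with the transcript showed the same order at equal depth. With every cell thinned to 3000 UMIs, a Tnfrsf11b UMI was found in 44.1%, 33.7% and 36.5% of Ifitm5 cells at P15, P25 and 8 weeks and in 22.4%, 16.3% and 20.5% of Ibsp cells. In Hand2 cells it was found in 1.14% at P15 and in 0 of 192 and 0 of 107 cells later, which allows shares of up to 1.56% and 2.80%. The share in Csf1r cells, a myeloid class that served as the background, was 2.72%, 1.1% and 5%, so the Hand2 shares are not read as above background. The median depths before thinning were 12309 to 23975 UMIs in Ifitm5 cells, 11971 to 19768 in Hand2 cells and 11056 to 18214 in Csf1r cells. Without thinning, the shares were 82.9%, 80.7% and 68.7% of Ifitm5 cells and 49.0%, 44.7% and 34.1% of Ibsp cells.

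Cells with both Hand2 and Ibsp stood between the single gates in Tnfrsf11b, but their balance was 0, 2.48 and 1.19 per 100 at P15, P25 and 8 weeks, with intervals that overlapped those of the Ibsp gate. They numbered 41, 614 and 440 in the 3 libraries and were made a class of their own after the data had been seen. Their Tnfrsf11b level was 39.0 CPM at P15, 46.1 at P25 and 65.1 at 8 weeks, below the Ibsp gate and above the Hand2 gate in every library. The log2 fold change was -0.86 ± 0.18 against the Ibsp gate (edgeR adjusted p = 0.0289, Benjamini-Hochberg, 1.26% of genes called) and 3.22 ± 0.25 against the Hand2 gate (edgeR adjusted p = 6.29e-06, 3.01% called). Tnfsf11 in these cells was 0 of 41 cells at P15 (floor of 3 UMIs, 3.78 CPM), 1.14 CPM at P25 and 0.775 CPM at 8 weeks, and it did not pass the test against either gate.

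Tnfsf11 was a low transcript in every gate. Its level in the Ibsp gate was 3.12 CPM at P15, 2.07 at P25 and 0.650 at 8 weeks, from 64, 39 and 5 UMIs. At 8 weeks all 5 UMIs lay in 1 cell. In the Hand2 gate it was 4.44, 2.37 and 5.32 CPM, and at P15 it was 9.76 in the Rgs5 gate and 2.10 in the Pappa2 gate. In the Ifitm5 gate it was 0.501 and 0.668 CPM at P15 and P25, and no UMI was found at 8 weeks, where 3 UMIs would be 0.822 CPM. The Csf1r gate had 1.16 and 0.773 CPM and no UMI at 8 weeks, so the Ifitm5 level is not read as above background. These Csf1r levels came from 7 and 3 UMIs, and 3 UMIs at 8 weeks would be 13.0 CPM. The Pappa2 level at P15 and the Ibsp and Hand2 levels at P25 are also not read as above background. The same holds for every gate at 8 weeks.

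Against the other mesenchymal gates, Tnfsf11 was lower in the Ifitm5 gate by a log2 fold change of -2.37 ± 0.57 (edgeR quasi-likelihood test, Benjamini-Hochberg adjusted p = 0.016, lower in 3 of 3 libraries). This call was lost without the P25 library (-3.15, edgeR adjusted p = 0.0512) and with gates on UMIs scaled to a fixed depth (-1.57, adjusted p = 0.197). The value was 2.0 ± 0.67 in the Rgs5 gate (edgeR adjusted p = 0.109), 0.98 ± 0.52 in the Hand2 gate (0.33), -0.48 ± 0.71 in the Pappa2 gate (0.935) and -0.13 ± 0.47 in the Ibsp gate (edgeR adjusted p = 1). The intervals of the last 3 were -0.03 to 2.0, -1.87 to 0.91 and -1.06 to 0.79, so differences within these bounds were not detectable at this depth. Between the Ibsp and Ifitm5 gates the log2 fold change of Tnfsf11 was 1.79 ± 0.58 (edgeR adjusted p = 0.11).

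Most Tnfsf11 lay outside all gates. Cells of no gate were 57.7%, 54.2% and 63.3% of all cells and held 69.4%, 75.3% and 77.2% of all Tnfsf11 UMIs at P15, P25 and 8 weeks, at 4.52, 5.30 and 2.42 CPM. Because hemoglobin, neutrophil and keratin transcripts were seen in some of these cells, a stromal subset was defined afterwards by collagen and Sparc transcripts and by low levels of the other 3 kinds. It held 6165, 4474 and 3180 cells, with 427 of the 430, 375 of the 375 and 61 of the 61 Tnfsf11 UMIs. The remaining 1298, 392 and 104 cells held 3, 0 and 0 Tnfsf11 UMIs and 482, 49 and 2 Tnfrsf11b UMIs. At P15 their Tnfrsf11b level was 46.5 CPM against 40.9 in the stromal subset. Their balance was 0.622 per 100 against 12.3 in that subset.

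**Figure D2:**
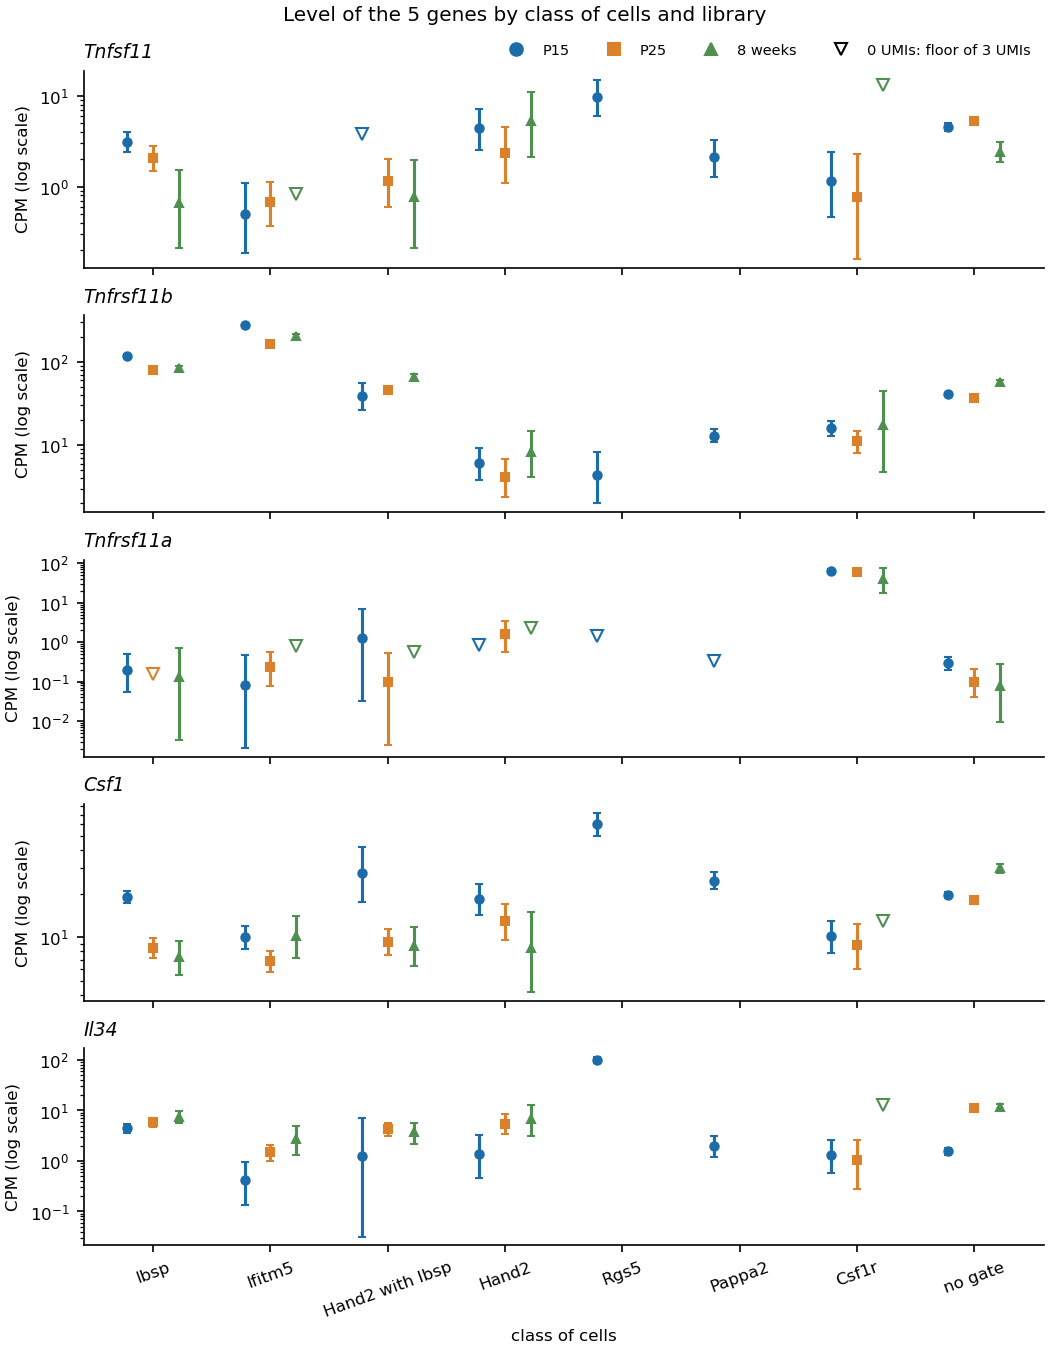
Level of the 5 genes in CPM (log axes) in each class of cells at P15, P25 and 8 weeks, with exact Poisson 95% intervals; open triangles mark classes with 0 UMIs at the floor of 3 UMIs. Tnfrsf11b is highest in the Ifitm5 gate (275 CPM at P15), Tnfrsf11a in the Csf1r gate (63.7 CPM), and Csf1 (60.5 CPM) and Il34 (98.5 CPM) in the Rgs5 gate.

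Tnfrsf11a, the receptor, was found mostly in the Csf1r gate. It reached 63.7 CPM at P15 (384 UMIs), 59.3 at P25 (230 UMIs) and 39.1 at 8 weeks (9 UMIs), and 0.334, 0.182 and 0.0924 CPM in all mesenchymal cells. Against the mesenchymal gates the log2 fold change was 9.46 ± 0.52 (edgeR adjusted p = 6.81e-08, Benjamini-Hochberg, 3 of 3 libraries), and 7.69 to 10.6 leaving out a library. This comparison is between cell lineages, and 51.4% of the genes tested passed in it. The Csf1r gate held 81.9%, 85.2% and 64.3% of all Tnfrsf11a UMIs, and the Hand2 gate held 6 of the 270 at P25. Of 18 tested genes of RANK and CSF1R signalling, 15 were higher in this gate and none lower, one of them Csf1r, whose call the gate itself fixed. They ran from Relb (log2 fold change 0.67), a subunit of the noncanonical NF-κB pathway, to Fcer1g (10.11), an adaptor of immune receptors. Nfatc1, the master transcription factor of osteoclasts, was at 1.81 and is named after its value was seen.

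Some Csf1r cells carried transcripts of fusing osteoclasts. At P15, 67 of the 382 cells had a UMI of Dcstamp, Ocstamp or Atp6v0d2, which take part in osteoclast fusion and acid secretion, a split chosen after the data had been seen. Tnfrsf11a was 82.5 CPM (68.4 to 98.6) in these and 57.7 (50.9 to 65.1) in the other 315. Acp5 (the osteoclast phosphatase TRAP) was 3223 against 101 CPM and Ctsk (cathepsin K, the collagen-cleaving protease) 2918 against 57.3. At P25, 16 of 183 cells had such a UMI, with 73.1 CPM (49.7 to 104) of Tnfrsf11a against 57.6 (49.9 to 66.2), and at 8 weeks none of the 21 did. Acp5 at P25 was 264 against 149 CPM and Ctsk 92.0 against 119.5, so the Ctsk order of P15 was not seen there. At P15 Ctsk was also 305 CPM in cells of no gate and 401 in the Ibsp gate. The 9 osteoclast markers summed to 298 to 1907 CPM in the Csf1r gate and 449 to 778 in the Ibsp gate, so their sum did not set the Csf1r gate apart. Within 1 library per age this split has no test.

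The myeloid gate was compared with the mean of the mesenchymal gates, which includes the Rgs5 gate with the highest Csf1 and Il34 levels. Il34 was lower in the myeloid gate by a log2 fold change of -2.26 ± 0.50 (edgeR adjusted p = 0.00254, Benjamini-Hochberg), Csf1 by -0.97 ± 0.30 (0.0182) and Tnfrsf11b by -0.63 ± 0.18 (edgeR adjusted p = 0.0127), each lower in 3 of 3 libraries. The myeloid gate held 1.64% of the Csf1 UMIs in 2.96% of the cells at P15 and 1.74% in 2.04% at P25. In the Ifitm5 gate these shares were 3.24% in 4.71% and 7.35% in 8.84%, and the 2 gates were not tested against each other. The call for Tnfrsf11b was lost without P25 (-0.53, adjusted p = 0.143), and its value was -1.94 without P15. For Tnfsf11 the log2 fold change was -1.34 ± 0.64 (edgeR adjusted p = 0.101). Among 16 other tested cytokines that act on osteoclast precursors, 7 were higher in the Csf1r gate and 3 lower, where 51.4% of all genes tested were called, from Il1a at 10.32 to Sema3a, a secreted inhibitor of osteoclast formation, at -2.17.

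Csf1 and Il34, the ligands of CSF1R, were highest in the Rgs5 gate at P15. Csf1 reached 60.5 CPM there (50.3 to 72.1) against 18.9 in the Ibsp, 18.3 in the Hand2, 24.5 in the Pappa2 and 10.0 in the Ifitm5 gate of the same library. Il34 reached 98.5 CPM (85.4 to 113) against 0.417 to 4.44 in these 4 gates. The log2 fold changes were 1.61 ± 0.35 for Csf1 (edgeR adjusted p = 0.0147) and 5.43 ± 0.40 for Il34 (edgeR adjusted p = 7.14e-06, Benjamini-Hochberg), from the 1 library that had enough Rgs5 cells. The call for Csf1 was lost without P25 (1.59, adjusted p = 0.0716). The 173 Rgs5 cells were 1.34% of the cells at P15 and held 37.4% of its Il34 UMIs. At P25 and 8 weeks the gate had 9 and 4 cells with 2 Il34 UMIs each.

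Il34 was low in the Ifitm5 gate, with 0.417, 1.48 and 2.74 CPM at P15, P25 and 8 weeks against 4.44, 5.83 and 7.41 in the Ibsp gate and 1.39, 5.52 and 6.84 in the Hand2 gate. Against the other mesenchymal gates the log2 fold change was -2.77 ± 0.40 (edgeR adjusted p = 0.000852, 3 of 3 libraries), and -1.46 without P15. The Ibsp gate was above the Ifitm5 gate by 1.96 ± 0.40 (edgeR adjusted p = 0.0151, 3 of 3), a call lost without P25 (adjusted p = 0.163) or without 8 weeks (0.0857). Csf1 in the Ifitm5 gate was 10.0, 6.87 and 10.1 CPM, and its log2 fold change of -0.82 ± 0.27 missed the threshold (edgeR adjusted p = 0.0667).

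**Figure D3:**
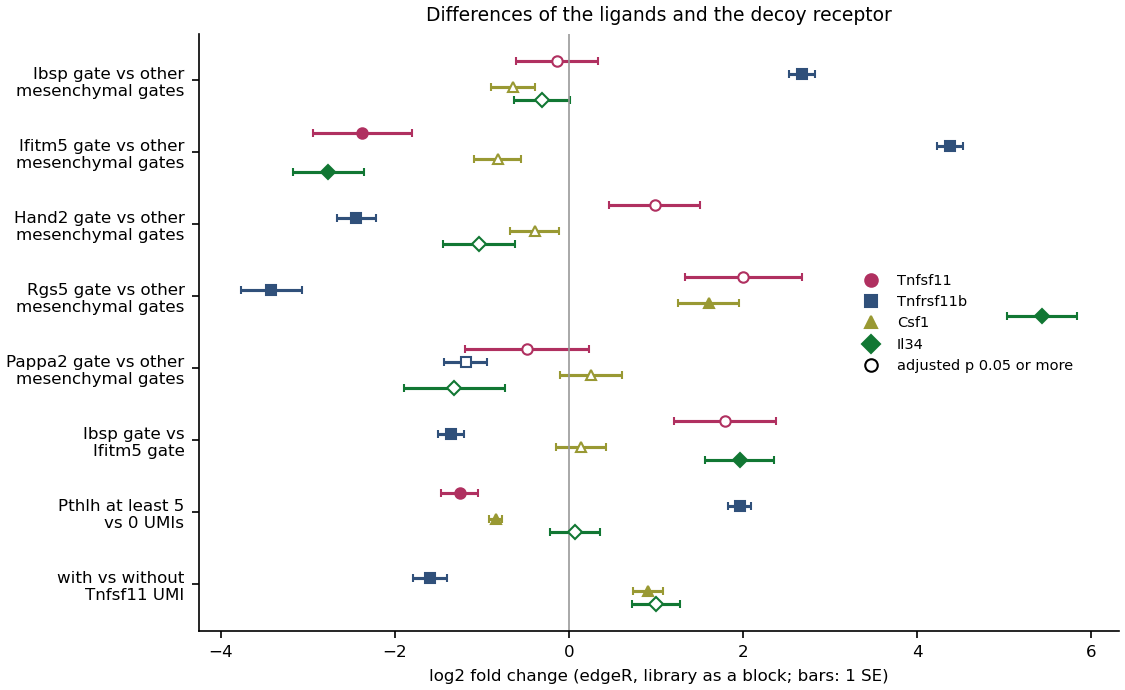
Log2 fold changes with 1 SE from edgeR for Tnfsf11, Tnfrsf11b, Csf1 and Il34 in 8 comparisons; filled symbols have an adjusted p below 0.05. Tnfrsf11b spans 4.38 (Ifitm5 gate) to -3.42 (Rgs5 gate), and Il34 is highest in the Rgs5 gate (5.43).

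Other genes of the pathway were taken from 4 lists of signals that act on mesenchyme (14 genes tested), other cytokines acting on osteoclast precursors (16), RANK and CSF1R signalling (18) and shedding or clearing enzymes (4). Over all genes tested, 15.2% were called in the Ifitm5, 7.62% in the Rgs5, 6.25% in the Hand2, 1.5% in the Ibsp and 0.963% in the Pappa2 comparison. In the Ifitm5 gate, 1, 4, 0 and 0 members of these lists were higher and 4, 3, 3 and 1 lower. Dkk1, a secreted Wnt inhibitor, was higher by 3.47, and Ccl2, a monocyte chemoattractant, and the cytokine Il6 were lower by log2 fold changes of -3.00 and -2.97. In the Rgs5 gate, 5, 2, 3 and 1 were higher and 1, 1, 0 and 0 lower, with Ccl2 at 6.32, Il6 at 5.46 and Osmr, a receptor of oncostatin M, at 4.05, beside the higher stress genes given above. In the Ibsp gate Bmp2 (1.75), a bone morphogenetic protein, and Sema3a (1.33) were higher and no listed gene was lower. In the Hand2 gate, 2 were higher and 4 lower, and in the Pappa2 gate only Tgfb1 (1.00) passed the test. The median log2 fold change of each list lay between -0.58 and 0.51 in these 5 comparisons, against -0.04 to 0.03 over all genes.

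Pthlh itself was high in the cementoblast gates, with 398, 321 and 395 CPM in the Ibsp gate and 361, 228 and 252 in the Ifitm5 gate at P15, P25 and 8 weeks. In the Hand2 gate it was 19.4, 59.9 and 32.7 CPM. Cells were next ordered by their Pthlh UMIs to see how the balance moved with it.

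Tnfrsf11b was higher in cells with more Pthlh UMIs, and Tnfsf11 was lower at P15 and P25. In mesenchymal cells with 0, 1, 2 to 4, 5 to 9 and at least 10 Pthlh UMIs, Tnfrsf11b was 32.7, 46.0, 86.6, 140 and 170 CPM at P15. Over the same bins the P25 library had 27.7, 44.2, 65.5, 98.7 and 116 CPM, and the 8-week library 42.8, 60.2, 87.3, 137 and 119 CPM. From the first bin to the last, Tnfsf11 went from 5.17 to 1.31 CPM at P15, from 5.23 to 1.5 at P25 and from 2.23 to 1.19 at 8 weeks. The last value came from 3 UMIs (0.245 to 3.48 CPM), and its interval overlapped that of the first 8-week bin (1.55 to 3.10). The balance went from 15.8 to 0.770 Tnfsf11 UMIs per 100 Tnfrsf11b UMIs at P15, from 18.9 to 1.29 at P25 and from 5.20 to 1.00 at 8 weeks. Median depth was 12829 and 15700 UMIs in the first and last bin at P15, 12901 and 19978 at P25 and 6111 and 11234 at 8 weeks. At equal depth the direction was the same for Tnfrsf11b in every library and for Tnfsf11 at P15. Of cells thinned to 3000 UMIs, those without and with a Pthlh UMI held Tnfrsf11b in 9.28% and 20.6%, 9.80% and 17.9%, and 13.9% and 22.3% at the 3 ages. They held Tnfsf11 in 1.32% and 0.593%, 0.942% and 0.496%, and 0.662% and 0.202%, against 0.272% and 1.1% of Csf1r cells at P15 and P25, where the latter is 2 of 181 cells (0.134% to 3.93%), so no order is read from the P25 shares of Tnfsf11. At 8 weeks the Tnfsf11 share of cells with Pthlh came from 3 cells. Its interval (0.0416% to 0.589%) overlapped that of cells without Pthlh (0.386% to 1.06%).

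Cells with at least 5 Pthlh UMIs (1658, 1836 and 698) were tested against cells with 0 (5663, 2836 and 2291). Tnfrsf11b was 153 against 32.7 CPM at P15, 107 against 27.7 at P25 and 131 against 42.8 at 8 weeks, higher by 1.96 ± 0.13 on the log2 scale (edgeR adjusted p = 0.00574, Benjamini-Hochberg, 3 of 3 libraries). Of 13588 genes tested, 12.1% passed in this comparison. Tnfsf11 was 1.98 against 5.17 CPM, 1.92 against 5.23 and 1.39 against 2.23, a log2 fold change of -1.26 ± 0.21 (edgeR adjusted p = 0.027, lower in 3 of 3). The 8-week log2 ratio of Tnfsf11 was -0.68 with an interval of -1.81 to 0.33, from 11 against 35 UMIs. Of these 11 UMIs, 5 lay in 1 cell, so no direction is read at 8 weeks alone. Csf1 was 12.8 against 24.7, 10.5 against 17.2 and 12.4 against 23.6 CPM (log2 fold change -0.84 ± 0.08, edgeR adjusted p = 0.00773), and Il34 had 0.07 ± 0.29 (edgeR adjusted p = 0.912). The Tnfsf11 call was lost without P25 (-1.12, adjusted p = 0.144), without 8 weeks (-1.41, 0.0704) and without the replicate block (-1.23, edgeR adjusted p = 0.322), and the Csf1 call without 8 weeks (adjusted p = 0.06) or without the block (0.0761).

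The classes differed in cell type as well as in Pthlh. Of the 5 alpha cementoblast markers, 4 were higher in the cells rich in Pthlh and none lower, with summed levels of 10859 to 22815 CPM against 628 to 2289. All 8 macrophage and monocyte markers were lower, at 9.08 to 34.6 CPM against 58.1 to 173, so UMIs of myeloid genes were counted in the class without Pthlh. Their part in these differences was not tested. With stromal cells alone, Tnfrsf11b and Tnfsf11 kept their calls at 1.94 (edgeR adjusted p = 0.00525) and -1.33 (0.0183). In cells of no gate, which leave out the cementoblast gates, Tnfrsf11b was higher by 1.12 (edgeR adjusted p = 0.02, 2.43% of 12774 genes called) and Tnfsf11 had a log2 fold change of -0.85 (0.15). Both of these sets of cells were chosen after the data had been seen.

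Inside most gates with enough cells Tnfrsf11b was also higher with more Pthlh, as values without a test. This was not seen in Hand2 cells, which had 6.13 CPM at 0 and 5.66 at 1 Pthlh UMI at P15 and 3.90 and 4.74 at P25, with overlapping intervals. In the Ibsp gate, Tnfrsf11b went from 44.2 CPM in cells with 0 Pthlh UMIs to 155 CPM in cells with at least 10 at P15, from 30.2 to 119 at P25 and from 30.9 to 151 at 8 weeks. In the Ifitm5 gate it went from 170 to 317 CPM at P15 and from 116 to 188 at P25. In cells with both Hand2 and Ibsp it went from 7.69 to 94.2 CPM at P25 and from 15.6 to 159 at 8 weeks. In cells of no gate the values went from 32.6 to 69.7, from 22.4 to 69.3 and from 48.7 to 81.3 CPM. Within the Ibsp gate at P15, the 205 cells with 0 Pthlh UMIs held Tnfsf11 at 13.1 CPM (9.21 to 18), or 29.6 per 100 Tnfrsf11b UMIs (19.9 to 43.0), and the 655 cells with at least 5 held 1.27 CPM (0.693 to 2.13), or 0.826. At P25 these levels were 4.82 and 1.56 CPM. None of these values was made again without possible doublets. At 8 weeks no UMI was found in the 206 cells with 0 Pthlh UMIs and 5 UMIs (2.20 CPM) in those with at least 5. All 5 UMIs lay in 1 cell, so no direction is read at 8 weeks. In Ifitm5 cells the log2 ratio of Tnfsf11 between the Pthlh classes was 0.74 as a mean over P15 and P25. The UMIs at P15, P25 and 8 weeks were 5, 6 and 0 in the cells rich in Pthlh and 1, 1 and 0 in those without.

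**Figure D4:**
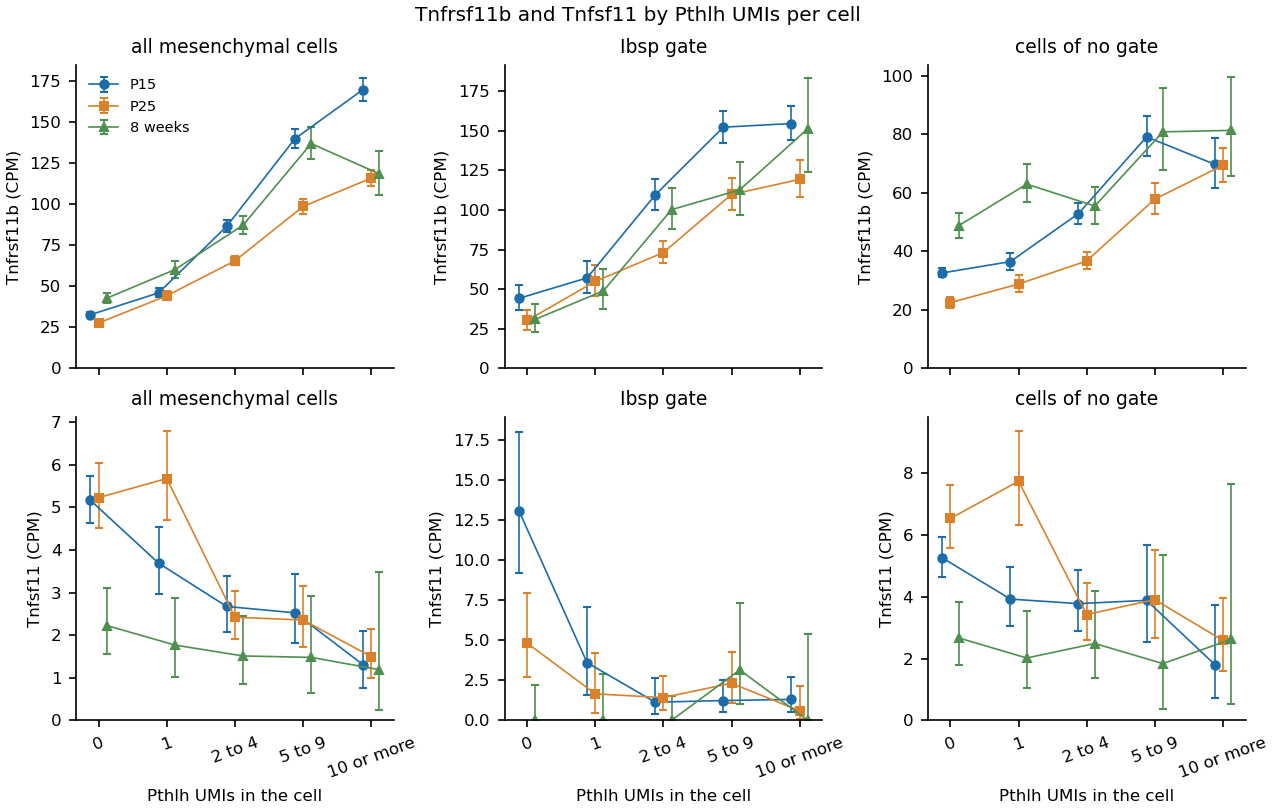
Tnfrsf11b (top) and Tnfsf11 (bottom) in CPM against Pthlh UMIs per cell in all mesenchymal cells, the Ibsp gate and cells of no gate, with exact Poisson 95% intervals; lines join the bins of 1 library. In all mesenchymal cells Tnfrsf11b reaches 170 CPM at P15 from 32.7, and Tnfsf11 goes from 5.17 to 1.31 CPM.

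Among the list genes, Wnt5a (a Wnt ligand, 1.91), Bmp2 (1.23) and Sema3a (1.20) were higher in the cells rich in Pthlh, and Ccl7 (-1.94), Il1b (-1.75), Cxcl12 (-1.33) and Sfrp1 (-0.94) were lower, of 15 other cytokines tested. Pth1r, the receptor of PTHrP, was lower by a log2 fold change of -0.48 (edgeR adjusted p = 0.00834), and Il11ra1, a receptor of interleukin 11, by -0.77, of 14 signals tested. Among 18 genes of RANK and CSF1R signalling, Prdm1 (1.40) was higher, and Tyrobp (-2.86), Fcer1g (-2.67) and Csf1r (-2.04) were among those lower, and these 3 are among the macrophage markers given above. Of the 4 enzymes, none passed, where 12.1% of all 13588 genes tested were called. In the comparison of the Csf1r gate with the mesenchymal gates, Ccl7 and Il1b were higher by log2 fold changes of 9.04 and 9.59. In cells of no gate, Cxcl12 (-0.69) was the only gene called of 13 other cytokines tested, and Il1b was not tested. None of 14 signals passed there. The part of myeloid UMIs and of cell type in these differences was not tested.

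Tnfsf11 was found in few cells, and over all mesenchymal cells in a smaller share of those with Tnfrsf11b UMIs. Of mesenchymal cells without a Tnfrsf11b UMI, 4.05% at P15, 3.73% at P25 and 1.11% at 8 weeks held Tnfsf11. Of those with at least 3 Tnfrsf11b UMIs, 1.25%, 1.96% and 0.585% did, although their median depth was higher (17917 against 13012 UMIs at P15). After thinning to 3000 UMIs, the shares were 1.22%, 0.871% and 0.534% without Tnfrsf11b and 0.461%, 0.224% and 0.291% with it, from 5, 2 and 2 cells in the latter. In cells of no gate, 4.09%, 4.59% and 1.31% of those without a Tnfrsf11b UMI held Tnfsf11 at P15, P25 and 8 weeks. Of those with at least 3, 0.895%, 3.90% (1.96% to 6.87%) and 1.38% (0.168% to 4.89%) did. No difference is read there at P25 and 8 weeks.

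To describe the cells that carried the ligands, stromal cells of no gate with at least 3000 UMIs were divided by whether they held a UMI of the gene, a comparison added after the data had been seen. The classes held 267, 204 and 38 cells with and 4889, 3810 and 2346 without Tnfsf11, and 83, 71 and 11 of the cells with it held more than 1 UMI. Tnfrsf11b in the cells with and without Tnfsf11 was 10.2 against 43.1 CPM at P15, 18 against 38.6 at P25 and 19.2 against 59.5 at 8 weeks, a log2 fold change of -1.59 ± 0.20 (edgeR adjusted p = 0.00163, Benjamini-Hochberg, 5.14% of 12648 genes called). Csf1 was 44.2 against 19.7, 35.3 against 17.6 and 36.3 against 30.7 CPM, higher by 0.91 ± 0.17 (edgeR adjusted p = 0.0125), a call lost without P15 (0.71, adjusted p = 0.0634). Pthlh was lower (-0.79 ± 0.12, edgeR adjusted p = 0.00235), with 69.2 against 110, 98.5 against 201 and 133 against 187 CPM. Il34 had 1.00 ± 0.28 (edgeR adjusted p = 0.0763). Cells with Tnfsf11 were deeper, with a median of 16697 against 15475 UMIs at P15. Summing counts thinned to 3000 UMIs per cell gave -2.04 for Tnfrsf11b and 1.31 for Csf1. The classes were still set by the UMIs before thinning, so the part of depth in them was not tested.

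Of the genes past the threshold, the most increased with Tnfsf11 were Cldn11 (3.11), a tight junction protein, Gdpd2 (3.02), Heyl (2.93), a target of Notch signalling, Pdzrn4 (2.73), the receptor Notch3 (2.58) and Foxs1 (2.52). The most decreased were Pi16 (-5.81), a marker of adventitial fibroblasts, Prg4 (-4.73), or lubricin, Tac1 (-4.16), Car2 (-3.39) and Smpd3 (-3.26), a sphingomyelinase needed for mineralization. Clec3b (-2.83), Tubb3 (-2.64) and Tcf7 (-2.38), a Wnt-regulated transcription factor, came next. Notch3 went from 10.1 to 63.5 CPM at P15, from 10.3 to 46.9 at P25 and from 7.69 to 74.8 at 8 weeks. Of 7 mural markers, Notch3 and Pdgfrb were higher of 6 tested and none lower, with summed levels of 356 to 685 CPM with and 218 to 382 without Tnfsf11. Of the 14 signals, Ptger4 (1.65, a prostaglandin E2 receptor), Esr1 (1.45, the estrogen receptor), Osmr (1.07) and Pth1r (0.56) were higher and none lower. Of the other cytokines, Sema3a was lower (-1.64) and Ccl2 higher (1.17).

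Cells with Csf1 made up 23.7%, 21.5% and 21.1% of the same cells. The genes most increased with it were Pi16 (3.18), Cd55 (2.87), Mfap5 (2.64), a microfibril protein, and Il33 (2.32), and the most decreased were Coch (-1.72), Tnfrsf21 (-1.26), Mmp11 (-1.11) and Wnt10a (-1.09). Pi16 was thus the most decreased of the genes called in cells with Tnfsf11 and the most increased of those called in cells with Csf1. In the latter its edgeR adjusted p was 0.0498, close to the threshold. Of 13014 genes, 0.822% were called, and this count of 107 was 25 without P25 and 622 without 8 weeks. Tnfsf11 was 9.95 against 3.40 CPM at P15, 8.52 against 4.49 at P25 and 3.25 against 2.36 at 8 weeks (log2 fold change 1.07 ± 0.21, edgeR adjusted p = 0.113).

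Cells with Il34 made up 2.06% of them at P15, 10.5% at P25 and 9.35% at 8 weeks. Mmp3 (3.24), or stromelysin, Fcgr2b (3.21), Mmp10 (3.04) and Rarres1 (2.70) were most increased with it. Hist1h1b (-2.81), Mki67 (-2.12), Cenpf (-1.96) and Top2a (-1.87), genes of dividing cells, were among the most decreased. Of 12716 genes, 5.03% were called, a count of 639 that was 114 without P25 and 1355 without P15. Pthlh was higher in cells with Il34 (0.51 ± 0.12, edgeR adjusted p = 0.0386), at 202 against 106, 236 against 189 and 237 against 180 CPM.

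Levels by age are given as ratios between single libraries, with exact intervals and no test. In all mesenchymal cells, Tnfsf11 at 8 weeks was 0.466 times its P15 level (0.363 to 0.591), while at P25 it was 0.933 times (0.823 to 1.06). Tnfrsf11b was 0.942 times (0.914 to 0.970) and 1.08 times (1.04 to 1.13). Tnfrsf11a, near background in these cells, was 0.546 times (0.317 to 0.913) and 0.277 times (0.0726 to 0.755). Il34 was at 2.42 times (2.17 to 2.70) and 2.75 times (2.40 to 3.15), and in cells of no gate at 7.29 and 7.69 times. Csf1 was 0.709 and 1.08 times.

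The ages differed by class as well. In the Ibsp gate, Csf1 at P25 and 8 weeks was 0.448 and 0.385 times its P15 level and Tnfrsf11b 0.678 and 0.706 times. In cells of no gate Csf1 at 8 weeks was 1.53 times (1.40 to 1.66) and Tnfrsf11b 1.38 times (1.30 to 1.46). Tnfsf11 at 8 weeks was lower than at P15 in both, at 0.209 times (0.0655 to 0.512) in the Ibsp gate and 0.535 times (0.402 to 0.701) in cells of no gate, where the interval stayed below 1. In the Ibsp gate all 5 UMIs at 8 weeks lay in 1 cell, so nothing is read from its interval. Dissociation stress genes in cells of no gate were at 10048, 13912 and 23050 CPM at P15, P25 and 8 weeks. Inside the Ibsp gate, Hand2 was at 1.46, 38.1 and 87.5 CPM and the 5 periapical markers summed to 544, 2157 and 3444 CPM at P15, P25 and 8 weeks. The cells of this gate thus differed between ages. The shares of the gates among all cells, the depth and, at P25, the gene reference differed too. The part of all these in the ratios was not tested.

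**Figure D5:**
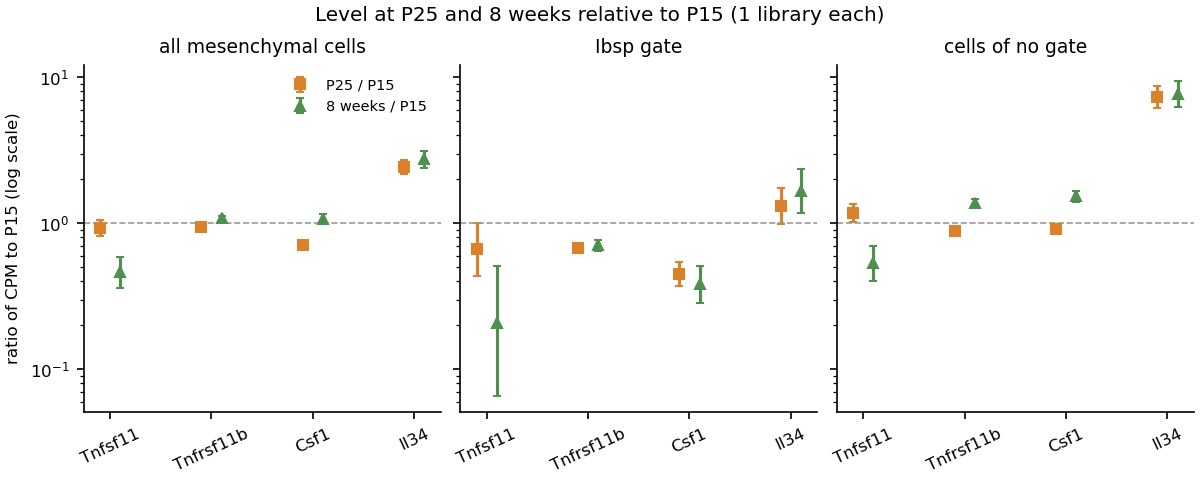
Ratio of the CPM at P25 and at 8 weeks to the CPM at P15 (log axis) for 4 genes in all mesenchymal cells, the Ibsp gate and cells of no gate, with exact 95% intervals for counting error and 1 library per age. Il34 is above 1 in cells of no gate (7.29 and 7.69 times), and Tnfsf11 is below 1 at 8 weeks in all 3 panels. The 8-week Tnfsf11 value of the Ibsp gate came from 1 cell.

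Genes with the most similar pattern were sought over the 14 sums of gates and libraries among 6228 genes for Tnfsf11 and 6227 for Tnfrsf11b with a mean of at least 20 CPM, by Pearson's r of log2 CPM. The sums share libraries and base levels, so these values are descriptive. Closest to Tnfrsf11b were Ank (0.982), a pyrophosphate transporter that is also one of the alpha cementoblast markers, Sgms2 (0.965), Pla2g5 (0.96), Bmp8a (0.95) and Wnt10a (0.93). Closest to Tnfsf11 were Mgp (0.907), an inhibitor of mineralization, Pfdn1 (0.896), Notch3 (0.888), Ebf1 (0.886) and Lama2 (0.886).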

How the data were processed

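For each of the 3 libraries the authors deposited UMI counts per gene and cell barcode, whole numbers without normalization, as Cell Ranger gave them (build mm10 per the submitters' processing notes). UMIs of a cell were collapsed by Cell Ranger, and the release of the gene annotation is not given in the sources used here. All deposited cells were kept. The spatial data and the P6 library of the study were not used. The 5 members, the gates, the marker lists and the pathway lists were chosen with earlier results of these data known. The cementoblast markers follow the names the study gave from its own cells, so they are no independent check.

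Genes were joined by identifier (21446 shared). UMIs were summed per library and gate where a sum had at least 20 cells, which gave 14 sums. These were compared with edgeR 4.0.16 (TMM factors 0.788 to 1.17, filterByExpr, quasi-likelihood test with robust estimates, library as a block, Benjamini-Hochberg over all genes tested, called below 0.05). Sums by Pthlh class and by presence of a ligand UMI were fitted in the same way. Sums of 1 library came from the same cell suspension, and the correlation of their deviations from the gate means across 6234 genes was 0.0362 to 0.775 (median 0.388, 18 pairs). DESeq2 1.42.0 was an alternative, and both tools were tested on simulated counts. Named genes are the members, the genes of the lists past the threshold with the largest and smallest log2 fold change, and, for cells with a ligand UMI, the 10 genes most increased and most decreased (a rule set with that comparison, after the data had been seen), from which the text takes some. One list gene is not reported here by name.

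Stromal cells had at least 0.5% of UMIs from Col1a1, Col1a2, Col3a1 and Sparc, under 1% from hemoglobin genes, under 1% from S100a8 and S100a9 and under 0.5% from Krt5, Krt8, Krt14 and Krt18. Shares carry Clopper-Pearson and ratios of UMIs conditional binomial 95% intervals. As doublets, the 6% of cells of each library with the highest Scrublet score were left out as an alternative. Other alternatives changed the UMI thresholds of the gates (lower and higher), scaled UMIs to 10000 per cell before gating, dropped the exclusion by Ptprc, Epcam and Pecam1, the low-count filter and the block, replaced TMM, required 500 genes and no more than 20% mitochondrial UMIs in a cell, and left out each library. R 4.3.3, Python 3.11.15, numpy 2.4.6, pandas 2.3.3, scipy 1.17.1 and scanpy 1.11.5 were used.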

Additional observations from a re-analysis of the deposited data

Results flagged for a closer look

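Il34 went in opposite directions with Pthlh in different libraries. Between mesenchymal cells with at least 5 and with 0 Pthlh UMIs its log2 ratio was -0.75 at P15 (95% interval -1.14 to -0.38), 0.62 at P25 (0.37 to 0.87) and 0.23 at 8 weeks (-0.20 to 0.66). With 1 library per age the difference between ages was not tested. At P15 the Rgs5 gate had 202 of the 540 Il34 UMIs of the library, and 25 of its 173 cells had a Pthlh UMI. In cells of no gate at P15, Il34 was 1.39 CPM in cells with 0 and 3.22 CPM in cells with at least 5 Pthlh UMIs. The part of the Rgs5 cells in the P15 value was not tested.

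Il34 UMIs were also found in cells with at least 3 Epcam UMIs, an epithelial marker, which no comparison used. At P25 these 512 cells held Il34 at 7.0 CPM (5.92 to 8.22, 148 UMIs), above the 1.03 CPM of the Csf1r gate in the same library. At P15 the Epcam cells held 10 Il34 UMIs, 1.85% of those of the library in 3.68% of its cells. At 8 weeks they held 19, or 4.52% in 0.963% of the cells.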

How the results depend on the processing

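Of 266 alternatives to 25 main values, 236 kept the direction and the side of the threshold or moved by less than the spread. Leaving out P15 lost no call of Tnfrsf11b in the comparisons that can be made without it, which excludes the Rgs5 gate. The cause of the changes below was not tested, except that fewer libraries leave fewer sums.

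Tnfsf11 against the other mesenchymal gates changed as follows. In the Ibsp gate (-0.13, not called) it was 0.41 with higher thresholds, 0.84 with scaled UMIs and -0.084 to 0.11 leaving out P25 or 8 weeks. In the Ifitm5 gate (-2.37) it was -1.57 with scaled UMIs and -3.15 to -2.18 leaving out a library. In the Rgs5 gate (2.0, not called) it passed with higher thresholds (2.28, adjusted p = 0.0325 by edgeR) and scaled UMIs (3.03, 0.019). In the Pappa2 gate (-0.48) it was 0.024 with lower thresholds. Without P15 Tnfsf11 was below the count filter, so no value was made.

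Tnfrsf11b with lower thresholds was -0.10 in the Rgs5 gate and -1.46 between the Ibsp and Ifitm5 gates (adjusted p = 0.113 by edgeR). In the Pappa2 gate (-1.19) it passed with no filter (-1.19, adjusted p = 0.0484) and with DESeq2 (-1.18, 0.0401).

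By Pthlh, Tnfsf11 (-1.26) was -0.85 in cells of no gate, 0.74 in Ifitm5 cells alone and -1.41 to -1.12 leaving out a library. Without the replicate block it was -1.23, and that fit called 10 genes in place of 1639. The count was 656 without P25 and 232 without 8 weeks.

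The mean log2 ratio of Tnfsf11 to Tnfrsf11b was -7.32 in the Ibsp gate without possible doublets. In the Hand2 gate it was 0.37 with lower and -1.79 with higher thresholds, -0.94 with scaled UMIs and -0.0027 without doublets. In the Rgs5 gate (1.11) it was -2.46 with lower thresholds and 2.63 without doublets. In the Pappa2 gate (-2.60) it was -1.39, -3.89 and -5.10 with lower thresholds, higher thresholds and scaled UMIs. In the Csf1r gate (-3.50) it was -2.30 with scaled UMIs, -2.74 without the exclusion of Ptprc, Epcam and Pecam1 and -4.00 without doublets.

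Counts of genes called moved by over 1.5 times in several comparisons. They lay between 42 and 329 for the Ibsp gate (202 as reported), 818 and 2376 for Ifitm5 (2055), 220 and 1173 for Hand2 (844), 42 and 308 for Pappa2 (130) and 76 and 948 for Ibsp against Ifitm5 (704), with the lowest without P25 or, for Pappa2, without the replicate block. For Rgs5 (1028) they were 715 to 1282 and for Csf1r (6934) 4687 to 7101. For cells with Tnfsf11 (650) they were 631 to 838.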
